A study of Danio rerio with 17 samples.

Results

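Ion channel genes were followed in the brains of adult zebrafish after an injection of domoic acid (DA), a neurotoxin from diatoms that activates ionotropic glutamate receptors. The members were all genes whose symbol on the array begins with scn and a digit, kcn, cacn, hcn, clcn, or trp followed by c, m, v or a. The rule found 26 genes, read by 30 probe sets, among 8793 genes with a single symbol. All 26 kept their symbol in RefSeq, where 241 protein-coding genes meet the same rule, so the genes named on the array are a small share of the family. A further 4572 probe sets carry no symbol, and whether any of them read channel genes was not tested. The members were sorted by what they encode, which left 24 genes for channels, chloride exchangers or channel subunits. The other 2, trpc4apa and trpc4apb, encode proteins that associate with the TRPC4 channel and are not channels themselves.

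Wild-type AB fish received DA at 1.1 ± 0.2 µg per g of fish in the body cavity at 1 year of age, or an equal volume of phosphate-buffered saline, and behavioural signs in DA fish passed within minutes. Brains were taken at 24, 48 or 168 h. Each RNA sample was a pool of 3 to 4 whole brains hybridised to 1 Affymetrix Zebrafish Genome array. The 17 arrays comprised DA at 24 h (n = 3), control at 24 h (n = 3), DA at 48 h (n = 3), control at 48 h (n = 2), DA at 168 h (n = 3) and control at 168 h (n = 3).

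Voltage-gated sodium channels carry the rising phase of the action potential, and their beta subunits tune gating and anchor them in the membrane. Potassium channels repolarise the cell and set its resting potential, calcium channels couple depolarisation to transmitter release and transcription, and HCN channels carry a depolarising current that opens on hyperpolarisation. CLC proteins move chloride across the plasma membrane or exchange it for protons in endosomes and lysosomes. Glutamate receptor overactivation depolarises neurons, and these families, of which the array names a small share, hold much of the machinery that answers a depolarisation.

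Every value below is a log2 probe-set value from the authors' deposited table, and every difference is DA minus control on that scale. Such values show how one probe set varies between arrays and not how abundant one gene is beside another. A call required an adjusted p under 0.05 in limma, with Benjamini-Hochberg adjustment over all 15502 probe sets tested. In whole-brain RNA, fewer cells of a type and less RNA per cell cannot be told apart.

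One array differed from the rest, that of DA replicate 1 at 24 h. Probe sets for artificial tags without a zebrafish match, called blank here, averaged 5.74 on it, against 4.94 to 5.18 on the 16 other arrays. It gave the highest of the 17 values for 6 members (cacna1c, clcn3, clcn4, kcnk5a, kcnn1b and scn1laa) and the lowest for 3 (kcnd3, trpc4apa and trpm7). Where leaving it out turned a 24 h difference or moved it by over 1.5 times, the value without it is given as well. In control replicate 3 at 24 h the 3′ minus 5′ difference of GAPDH probe sets was 4.63, against at most 3.7 elsewhere. The labelled tissue was checked against a list of neuron markers, of which 9 of 16 genes were measured. Their mean level at 24 h was 11.99 to 12.06 in DA brains and 11.82 to 12.09 in control brains. By limma 0 of the 9 were called in any DA comparison. An unadjusted p under 0.05 in limma at 24 h was reached by 1 higher and 1 lower gene, against 13.4% of all probe sets. Without DA replicate 1 it was reached by 3 higher and 1 lower gene, against 15.6% of all probe sets.

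No channel gene passed an adjusted p of 0.05 at 24 h, where 0.0323% of all probe sets passed, nor at 48 h or 168 h, where 0% of all probe sets passed. None passed for the mean of the 3 effects or for the difference of the effect between times, where 0% of all probe sets passed. Differences at an unadjusted p under 0.05 in limma numbered 6 of 26 at 24 h (clcn4, hcn2b, kcnk1b, scn1laa, scn4bb and scn8aa), against 13.4% of all probe sets. At 48 h there were 0 of 26 by limma, against 4.73% of all probe sets, and at 168 h again 0 of 26, against 3.02%. For the mean effect there were 3 of 26 (cacna1ha, scn4bb and scn8aa), against 7.68% of all probe sets. For the difference between times there was 1 (clcn4), against 6.26%.

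The members did not shift together. The median difference over the 26 genes was 0.01 at 24 h, 0.01 at 48 h and -0.04 at 168 h, and over all probe sets it was 0.01, 0.00 and -0.02 at the same times. Of the 26, 13 had a higher mean in DA brains at 24 h, 15 at 48 h and 12 at 168 h. The shares over all probe sets were 51.8%, 50.2% and 42.7%. A total of 6 members had a lower mean in DA brains at all 3 times (cacna1ha, clcn3, kcnb2a, kcnd3, scn4bb and scn8aa), 5 had a higher one (clcn7, kcnd1, kcnh6a, scn1laa and trpc4apa) and 15 differed in sign between times. Without DA replicate 1 at 24 h trpm7 was also higher at all 3 times (0.08, 0.08 and 0.15). The share of all probe sets with 1 sign at all 3 times was not computed, so these counts have no background beside them.

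At 24 h the widest differences of the members were those of the voltage-gated sodium channel genes scn8aa and scn4bb, with or without DA replicate 1. The gene scn8aa encodes a pore-forming alpha subunit, and its mammalian counterpart forms the channel concentrated at axon initial segments and nodes of Ranvier. At 24 h its 3 DA arrays read 9.66, 9.10 and 9.07 and its 3 control arrays 10.49, 10.33 and 10.27. Every DA array was below every control array. The difference was -1.09 (SE 0.23), or 2.12-fold lower, with a 95% interval from -1.57 to -0.60 and an adjusted p of 0.0908 in limma, which misses the threshold.

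At 48 h the DA arrays of scn8aa read 9.63, 9.51 and 9.62 and the control arrays 10.31 and 9.82. The groups did not overlap, and the DA arrays lay close together. At 168 h the DA arrays read 10.19, 9.30 and 9.12 and the control arrays 10.04, 9.67 and 10.02. DA replicate 1 was the highest array of that time and replicates 2 and 3 were below all controls, so the groups overlapped. The differences were -0.48 (SE 0.26) at 48 h and -0.37 (SE 0.23) at 168 h, with unadjusted p of 0.0836 and 0.128, and the mean over the 3 times was -0.64 (SE 0.14, adjusted p 0.110 in limma). The test of a difference between times gave an unadjusted p of 0.0931.

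The call for scn8aa depended on single arrays and on the choice of fit. Without DA replicate 1 at 24 h, its 24 h difference was -1.28 with an adjusted p of 0.0204 in limma and its mean effect was -0.71 with an adjusted p of 0.0350. It was then the 1 channel gene called, where 1.4% of all probe sets passed at 24 h and 0.413% for the mean effect. Without DA replicate 1 at 168 h the adjusted p for scn8aa in limma was 0.0105 at 24 h and 0.00415 for the mean effect. In that fit 82 and 163 of the 15502 probe sets passed. Over all alternatives run, its 24 h difference lay between -1.33 and -0.64 and its adjusted p between 0.0105 and 0.280.

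**Figure D1:**
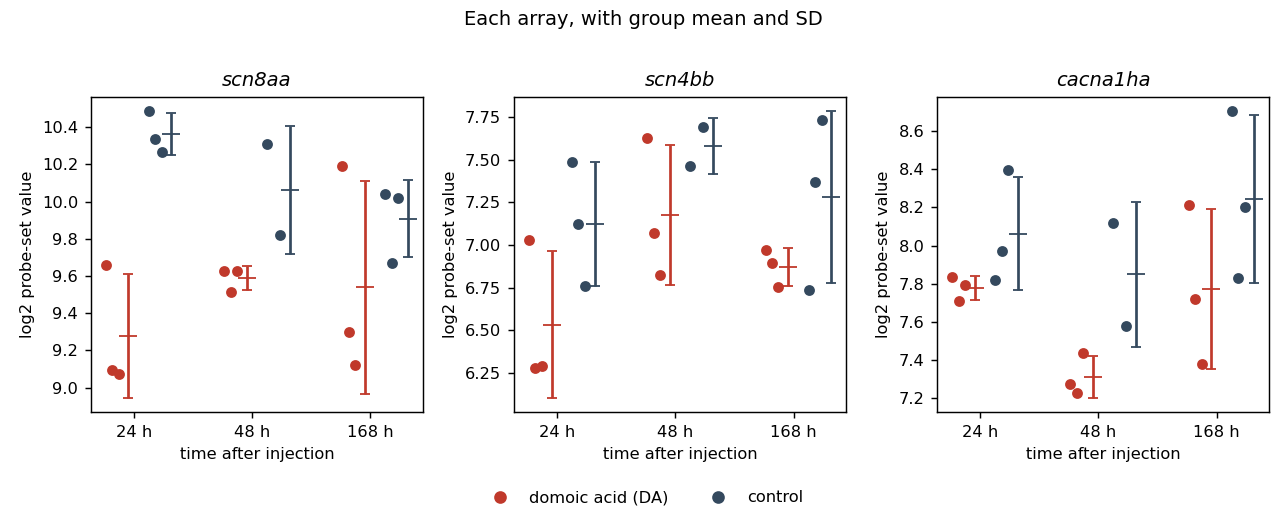
Log2 probe-set values of scn8aa, scn4bb and cacna1ha on each array (points) with the group mean and SD beside them, DA in red and control in dark grey, at 24, 48 and 168 h (n = 3 each, 2 for control at 48 h). For scn8aa at 24 h the DA arrays (9.07 to 9.66) are all below the control arrays (10.27 to 10.49), while at 168 h DA replicate 1 (10.19) is above every control array.

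The level of the hybridisation spike-ins, transcripts added in equal amount to every array, moved with scn8aa. They averaged 10.56, 10.09 and 9.49 on the DA arrays at 24 h and 10.96, 10.91 and 10.39 on the control arrays at 24 h. At 48 h they averaged 9.27 to 9.40 in DA and 10.79 and 9.70 in control, and at 168 h 10.02, 9.54 and 9.44 in DA and 9.55 to 9.71 in control. In a fit that took each array's spike-in level into account, the difference of scn8aa was -0.64 (SE 0.20, adjusted p 0.151 in limma) at 24 h, 0.09 (SE 0.23) at 48 h and -0.40 (SE 0.16) at 168 h. The sign at 48 h thus turned, and the mean effect was -0.32 (adjusted p 0.475 in limma). At 48 h the spike-in levels of DA and control arrays did not overlap, so spike-in level and treatment cannot be told apart there.

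**Figure D2:**
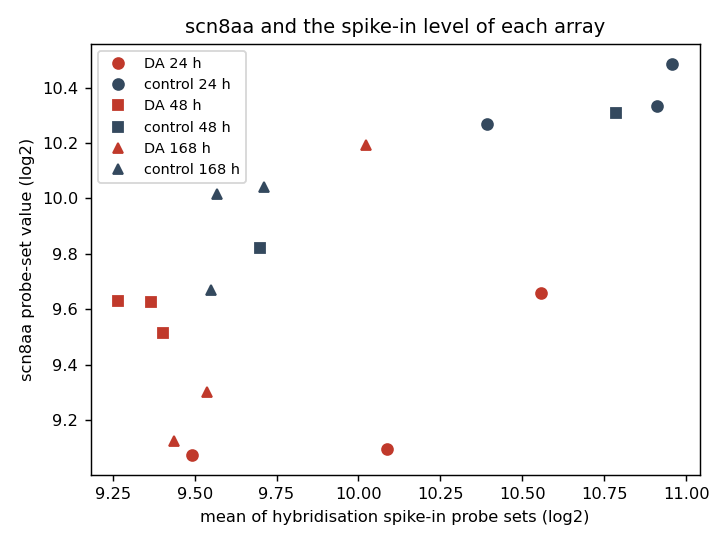
The log2 value of scn8aa (vertical axis) against the mean log2 value of the hybridisation spike-in probe sets (horizontal axis) on each of the 17 arrays, DA in red and control in dark grey, with one symbol per time. The 48 h DA arrays have the lowest spike-in levels (9.27 to 9.40). At 24 h the spike-in levels are 9.49 to 10.56 on DA arrays and 10.39 to 10.96 on control arrays. The scn8aa values at 24 h are 9.07 to 9.66 on DA arrays and 10.27 to 10.49 on control arrays.

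The gene scn1laa encodes the other sodium channel alpha subunit named on the array. It read 5.67, 4.94 and 4.78 in DA brains at 24 h and 4.67, 4.73 and 4.88 in control brains at 24 h. DA replicate 1 alone was far above the rest, and the groups overlapped. Its difference was 0.37 (unadjusted p 0.0410) with that array and 0.10 (unadjusted p 0.339) without it. At 48 h and 168 h its differences were 0.00 and 0.07.

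Beta subunits were read by scn3b and scn4bb. In mammals the SCN4B protein is linked to the resurgent sodium current that supports repetitive firing. At 24 h scn4bb read 7.03, 6.28 and 6.29 in DA brains and 7.49, 7.12 and 6.76 in control brains. DA replicates 2 and 3 were below all 3 controls and DA replicate 1 lay among them. Its difference was -0.59 (SE 0.27, adjusted p 0.357 in limma), and -0.84 (adjusted p 0.134) without DA replicate 1.

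At 48 h scn4bb read 7.63, 7.07 and 6.83 in DA brains and 7.46 and 7.69 in control brains, and at 168 h 6.97, 6.89 and 6.75 in DA brains and 6.74, 7.37 and 7.74 in control brains. The groups overlapped at both times, through a high DA array at 48 h and a low control array at 168 h. The differences were -0.41 at each, and the mean effect was -0.47 (SE 0.16, unadjusted p 0.0100, adjusted p 0.366 in limma). Its residual SD between arrays of a group, 0.37, was larger than that of 97.4% of all probe sets.

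The other beta subunit gene, scn3b, read 7.68, 8.07 and 7.57 in DA brains at 24 h and 8.02, 8.04 and 7.99 in control brains at 24 h. Its controls lay close together and DA replicate 2 was above them. Its differences were -0.24, -0.20 and 0.02 at 24, 48 and 168 h, and at 48 h its DA arrays (7.58 to 7.69) were all below its control arrays (7.75 and 7.91).

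Of the calcium channel genes, 1 had a lower mean in DA brains at all 3 times. The gene cacna1ha encodes an alpha1 subunit of low-voltage-activated, T-type channels, which open near rest and support burst firing. Its DA arrays read 7.83, 7.71 and 7.79 at 24 h and its control arrays 7.82, 7.97 and 8.39. At 48 h it read 7.27, 7.22 and 7.44 in DA brains and 8.12 and 7.58 in control brains. At 168 h it read 8.22, 7.72 and 7.38 in DA brains and 8.71, 7.83 and 8.20 in control brains.

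The groups of cacna1ha were apart at 48 h and overlapped at 24 h and 168 h. Its differences were -0.28, -0.54 (SE 0.25, unadjusted p 0.0506) and -0.47 (SE 0.23, unadjusted p 0.0545) at the 3 times. The mean effect was -0.43 (SE 0.14, unadjusted p 0.00627, adjusted p 0.295 in limma). In the fit with each array's spike-in level the mean effect was -0.28 (adjusted p 0.596 in limma), and in that fit without DA replicate 1 at 24 h the 24 h difference was 0.02.

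The L-type alpha1 gene cacna1c read 7.26, 6.67 and 6.80 in DA brains at 24 h and 6.53, 6.73 and 6.78 in control brains at 24 h. DA replicate 1 was the high one, and the difference was 0.23 with it and 0.05 without it. At 48 h and 168 h it was 0.06 and -0.22. The beta subunit gene cacnb2b, which helps bring alpha1 subunits to the membrane, differed by 0.02, 0.04 and -0.21, and at 24 h by -0.12 without DA replicate 1.

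Of the gamma subunit genes, cacng2b is the counterpart of mammalian stargazin, which carries AMPA-type glutamate receptors to synapses. It differed by 0.24, -0.25 and -0.11 at the 3 times, with overlapping arrays at 24 h (8.75 to 9.04 in DA, 8.42 to 8.93 in control). The gene cacng1a, whose mammalian counterpart belongs to the skeletal muscle channel, differed by at most 0.04 in size at any time, and at 24 h by -0.02 without DA replicate 1.

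Among potassium channel genes the differences were small. The pore-forming subunits of voltage-gated channels were read by 5 genes, and 0 of the 5 had an unadjusted p under 0.05 in limma at any time. The A-type gene kcnd3, whose channel delays firing by a rapidly inactivating current, read 9.10, 9.51 and 9.48 in DA brains at 24 h and 9.73, 9.48 and 9.78 in control brains at 24 h. Control replicate 2 lay at the level of DA replicates 2 and 3. Its difference was -0.30 (SE 0.15, unadjusted p 0.0595), or -0.17 without DA replicate 1, then -0.04 at 48 h and -0.08 at 168 h.

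The other A-type gene, kcnd1, differed by 0.06, 0.01 and 0.01, and at 24 h by 0.13 without DA replicate 1. The ether-a-go-go related gene kcnh2a differed by -0.01, 0.06 and -0.05, and at 24 h its 95% interval ran from -0.33 to 0.32. Its 24 h difference was -0.06 without DA replicate 1. Its relative kcnh6a differed by 0.07 (0.12 without DA replicate 1), 0.11 and 0.13, and the delayed rectifier gene kcnb2a by -0.09, -0.21 and -0.08. At 48 h the 3 DA arrays of kcnb2a (4.25, 4.43 and 4.43) were below the 2 control arrays (4.65 and 4.50).

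Two-pore channels carry the background potassium current. Their gene kcnk1b read 4.19, 4.13 and 4.28 in DA brains at 24 h and 4.33, 4.50 and 4.43 in control brains at 24 h. The groups did not overlap, with a difference of -0.21 (SE 0.09, unadjusted p 0.0281, adjusted p 0.314 in limma), or -0.21 without DA replicate 1. The gene kcnk5a, which encodes an acid-sensitive member, differed by 0.13, -0.17 and -0.12, and at 24 h by 0.05 without DA replicate 1. Its DA arrays were all below its control arrays at 48 h (5.05, 5.0 and 5.03 in DA, 5.20 and 5.20 in control) and at 168 h (5.04, 5.08 and 4.99 in DA, 5.27, 5.10 and 5.10 in control).

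The small-conductance calcium-activated channel gene kcnn1b read 5.45, 4.80 and 4.77 in DA brains at 24 h and 4.84, 4.91 and 4.88 in control brains at 24 h. DA replicate 1 was above every other array and DA replicates 2 and 3 were below all controls. The sign of its difference turned with that array, from 0.13 with it to -0.09 without it.

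The pacemaker channel gene hcn2b read 7.96, 7.86 and 7.66 in DA brains at 24 h and 8.22, 8.0 and 8.14 in control brains at 24 h. Every DA array was below every control array. The difference was -0.30 (SE 0.10, unadjusted p 0.00889, adjusted p 0.228 in limma), and -0.36 (adjusted p 0.0955) without DA replicate 1. At 48 h and 168 h it was -0.02 and 0.05, and the test of a difference between times gave an unadjusted p of 0.0582.

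**Figure D3:**
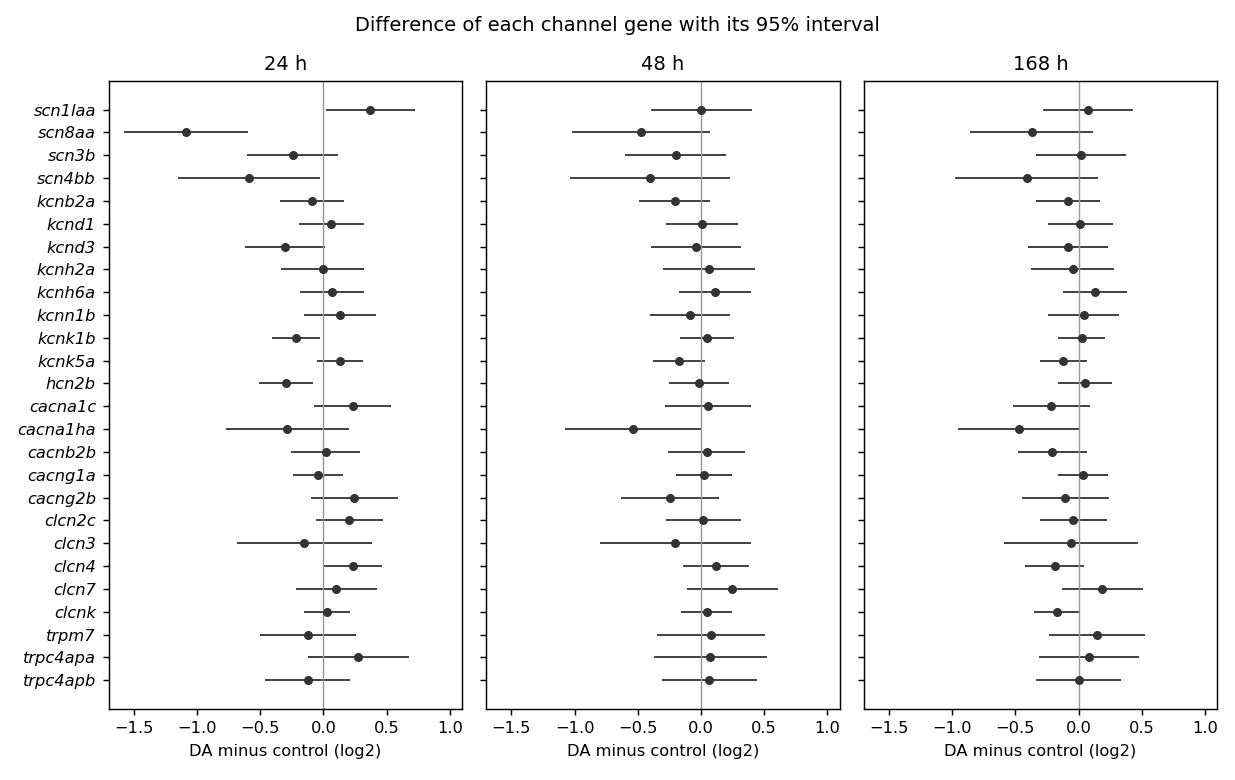
The DA minus control difference (log2, horizontal axis) of the 26 genes (rows, by class) at 24, 48 and 168 h, each with its 95% interval from limma. At 24 h the intervals of 6 genes exclude 0 (clcn4, hcn2b, kcnk1b, scn1laa, scn4bb and scn8aa), against 13.4% of all probe sets at an unadjusted p under 0.05. That of scn8aa runs from -1.57 to -0.60. Most point estimates lie within 0.25 of 0 in size (19 of 26 at 24 h, 23 at 48 h and 23 at 168 h).

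The CLC genes went different ways. The gene clcn4 encodes an endosomal chloride-proton exchanger and read 6.47, 6.35 and 6.44 in DA brains at 24 h and 6.02, 6.29 and 6.25 in control brains at 24 h. Every DA array was above every control array. The difference was 0.24 (SE 0.11, unadjusted p 0.0477, adjusted p 0.369 in limma), then 0.12 at 48 h and -0.19 at 168 h. The test of a difference between times gave an unadjusted p of 0.0406 and an adjusted p of 0.781 in limma.

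The gene clcn3 encodes a related exchanger of endosomes and synaptic vesicles. It read 6.40, 5.31 and 5.11 in DA brains at 24 h and 5.79, 6.02 and 5.46 in control brains at 24 h. DA replicate 1 was above all controls while DA replicates 2 and 3 were below all of them. Its difference was -0.15 (SE 0.25) with all arrays and -0.55 (SE 0.16, unadjusted p 0.00450, adjusted p 0.114 in limma) without DA replicate 1.

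The lysosomal exchanger gene clcn7 differed by 0.10, 0.25 and 0.19 at 24, 48 and 168 h, and at 24 h by 0.27 without DA replicate 1. At 48 h its DA arrays (9.19, 9.17 and 9.08) were above its control arrays (8.86 and 8.94), and the mean effect was 0.18 (unadjusted p 0.0663). The plasma membrane channel gene clcn2c differed by 0.21, 0.02 and -0.04. The gene clcnk, whose mammalian counterparts work in the kidney and inner ear, differed by 0.03, 0.05 and -0.17, and its DA arrays at 168 h (4.84 to 4.99) were all below its control arrays (5.02 to 5.13).

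The sole TRP channel gene named on the array was trpm7, which encodes a magnesium- and calcium-permeable channel fused to a kinase. It read 8.61, 9.12 and 9.29 in DA brains at 24 h and 9.03, 9.11 and 9.24 in control brains at 24 h, with the first DA array low, and differed by -0.12, 0.08 and 0.15 at the 3 times. Without that array the sign at 24 h turned, to 0.08. The TRPC4-associated gene trpc4apa read 8.18, 8.91 and 9.05 in DA brains at 24 h and 8.35, 8.48 and 8.47 in control brains at 24 h. DA replicate 1 was below all controls and the other DA arrays were above them. Its difference was 0.28 (SE 0.19), and 0.55 (SE 0.14, adjusted p 0.0727 in limma) without DA replicate 1. Its paralog trpc4apb differed by -0.12, 0.06 and 0.00, and at 24 h by -0.06 without DA replicate 1. Of its 4 probe sets, those not used differed by -0.35, 0.06 and 0.18 at 24 h. Without DA replicate 1 these values were -0.33, 0.17 and 0.24. The same probe sets differed by -0.02, 0.21 and 0.25 at 48 h and by -0.04, 0.01 and -0.22 at 168 h, so the sign depended on the probe set. Those at -0.35 and 0.06 at 24 h carry the suffix _s_at, which marks possible cross-hybridisation. The one at 0.18 had group means of 5.95 to 6.36, below the brightest blank probe set, 6.65.

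Without DA replicate 1, 7 members had an unadjusted p under 0.05 at 24 h (clcn2c, clcn3, hcn2b, kcnk1b, scn4bb, scn8aa and trpc4apa), against 15.6% of all probe sets. With all arrays, the DA and control arrays did not overlap at 24 h for 4 of 26 genes (clcn4, hcn2b, kcnk1b and scn8aa), against 12.8% of all probe sets. They did not overlap for 8 at 48 h, where 2 control arrays make it more frequent, against 27.3%. They did not overlap for 2 at 168 h (clcnk and kcnk5a), against 10.9%.

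**Figure D4:**
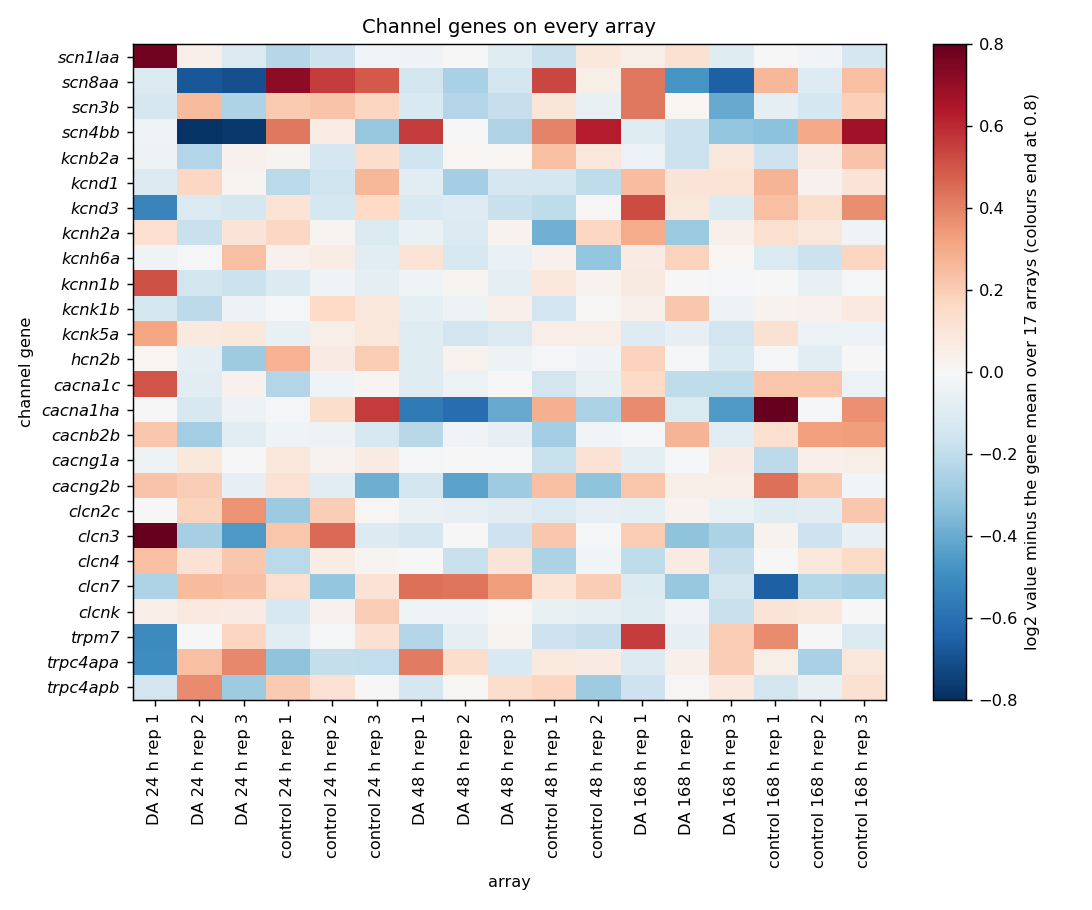
Each cell is the log2 value of a channel gene (rows) on an array (columns, DA before control at each time) minus the mean of that gene over the 17 arrays, with the colour scale ending at 0.8. DA replicate 1 at 24 h is the highest array for 6 genes, among them scn1laa (5.67) and clcn3 (6.40), and the row of scn8aa is low on DA replicates 2 and 3 at 24 h (9.10 and 9.07).

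Time was also compared within treatments. Among controls, 0 of 26 channel genes passed an adjusted p of 0.05 in limma, against 0.4% of all probe sets, and 2 (cacnb2b and clcn7) had an unadjusted p under 0.05, against 11.7%. Among DA brains, 0 of 26 passed, against 1.15% of all probe sets, and 5 (cacng2b, clcn4, clcn7, kcnd3 and kcnk5a) had an unadjusted p under 0.05, against 15.6%. The brains of each time were a separate set of pools, so time and set of pools cannot be told apart.

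In DA brains clcn7 read 8.50, 9.0 and 8.98 at 24 h, 9.19, 9.17 and 9.08 at 48 h and 8.63, 8.44 and 8.60 at 168 h. In control brains it read 8.87, 8.44 and 8.86 at 24 h, 8.86 and 8.94 at 48 h and 8.09, 8.52 and 8.50 at 168 h. In both treatments the 48 h mean was the highest and the 168 h mean the lowest. Time among DA brains had an adjusted p of 0.128 in limma with all arrays. Without DA replicate 1 at 24 h it was 0.0498, in a fit where 305 of the 15502 probe sets passed. Time among controls had an adjusted p of 0.278.

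The gene kcnk5a was the second by p among DA brains, at 5.46, 5.22 and 5.23 at 24 h, 5.05, 5.0 and 5.03 at 48 h and 5.04, 5.08 and 4.99 at 168 h. The 24 h arrays were all above the later ones (adjusted p 0.155 in limma, or 0.331 without DA replicate 1 at 24 h). In kcnd3 the 168 h mean of DA brains was 0.43 above the 24 h mean (adjusted p over the 3 times 0.272), and the highest 168 h array was DA replicate 1 (10.14). Among controls cacnb2b read 7.65, 7.65 and 7.56 at 24 h, 7.41 and 7.67 at 48 h and 7.82, 8.02 and 8.02 at 168 h, with the 168 h arrays on top (adjusted p 0.300).

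**Figure D5:**
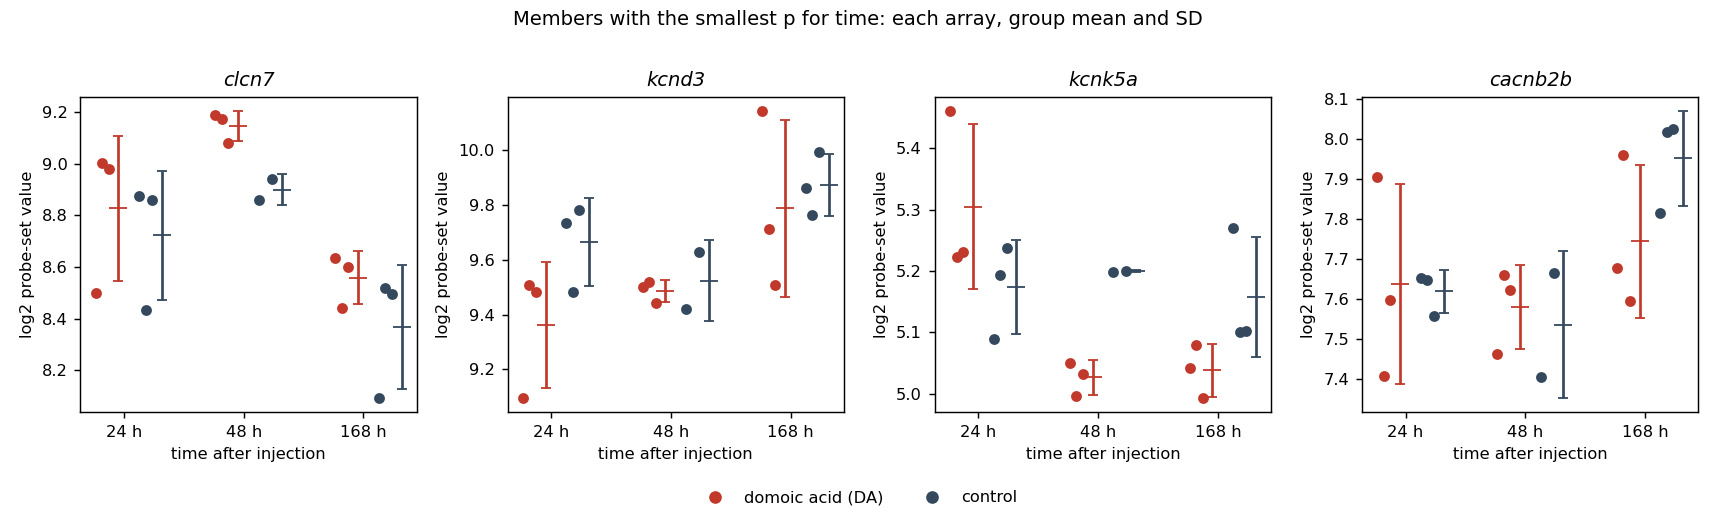
Log2 probe-set values of clcn7, kcnd3, kcnk5a and cacnb2b on each array (points) with the group mean and SD beside them, DA in red and control in dark grey, at 24, 48 and 168 h. The clcn7 means are highest at 48 h (9.15 in DA, 8.90 in control) and lowest at 168 h (8.56 in DA, 8.37 in control), and kcnk5a is higher in DA brains at 24 h (5.22 to 5.46) than later (4.99 to 5.08).

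How bright a probe set was limits what could be seen. For 12 of the 26 genes the mean over the arrays did not exceed the brightest blank tag probe set, 6.65, and the same held for 57.5% of all probe sets tested. These were cacng1a, clcn2c, clcn3, clcn4, clcnk, kcnb2a, kcnd1, kcnh6a, kcnk1b, kcnk5a, kcnn1b and scn1laa. What part background signal has in the differences of these genes was not tested. The genes scn8aa, scn4bb, cacna1ha and hcn2b were above it. At 24 h the median 95% interval of a member reached 0.31 to either side of its estimate.

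Other genes of ion transport, such as pumps, exchangers, store-operated calcium channels and anoctamins, were set beside the channels by symbol. Of 55 such genes, 25 had a higher and 30 a lower mean in DA brains at 24 h, with a median difference of -0.01. By limma 0 were called at any time. An unadjusted p under 0.05 was reached by 6 higher and 5 lower genes at 24 h, 1 higher and 3 lower at 48 h and 0 higher and 3 lower at 168 h, against 13.4%, 4.73% and 3.02% of all probe sets in either direction. The list held 4 genes for plasma membrane calcium pumps, which clear calcium after depolarisation. Of these, atp2b4 and atp2b1a held the widest 24 h differences of the 55. At 24 h atp2b2 and atp2b3a differed by -0.09 and -0.05, and by -0.02 each without DA replicate 1. Later atp2b2 differed by -0.31 at 48 h and -0.38 at 168 h (unadjusted p 0.0372 and 0.00764, adjusted p 0.999 at 168 h in limma). The differences of atp2b3a were -0.30 at 48 h and 0.04 at 168 h. At 24 h atp2b4 read 11.41, 10.75 and 10.56 in DA brains and 12.07, 12.02 and 12.90 in control brains, without overlap.

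The differences of atp2b4 were -1.42, -0.60 and -0.54 at 24, 48 and 168 h, with an adjusted p of 0.116 at 24 h in limma. At 24 h atp2b1a read 11.93, 11.0 and 11.17 in DA brains and 12.33, 12.34 and 12.21 in control brains, without overlap, and differed by -0.93, -0.36 and -0.68 (adjusted p 0.127 at 24 h). Without DA replicate 1, 2 of the 55 were called lower at 24 h, where 1.4% of all probe sets passed. Their differences were -1.21 for atp2b1a (adjusted p 0.0161 in limma) and -1.68 for atp2b4 (adjusted p 0.0304 in limma). The chloride channel gene ano1a was then called higher, by 0.45 (adjusted p 0.0380 in limma), but with all arrays it differed by 0.13 (adjusted p 0.781). Among DA brains the sodium pump regulator fxyd6l was the 1 gene of the 55 to change with time (adjusted p 0.0348 in limma), where 1.15% of all probe sets passed.

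Markers of cell types that a dissected brain could carry along were compared too. Photoreceptor markers, of which 12 of 19 were measured, all had mean levels not above the brightest blank probe set. Their mean level ran from 5.18 to 6.29 on DA arrays and from 5.06 to 5.35 on control arrays at 24 h. All 12 were higher in DA brains at 24 h with a median of 0.24, which was 0.00 without DA replicate 1, and all 12 were lower at 168 h with a median of -0.22. By limma 0 of the 12 were called at 24, 48 or 168 h. An unadjusted p under 0.05 in limma was reached by 1 at each time, against 13.4%, 4.73% and 3.02% of all probe sets. The 3 lens markers measured were also not above the brightest blank probe set. All 3 were higher at 24 h (median 0.17, or -0.05 without DA replicate 1) and lower at 168 h (median -0.15). Of 5 pituitary markers 4 were higher at 24 h, 0 without that array, and 2 at 168 h. Skeletal muscle, erythroid and skin markers were mixed in sign at 24 h. Of the 12 skeletal muscle markers 6 were higher and 6 lower (median 0.00), but without DA replicate 1 2 were higher and 10 lower (median -0.07). At 48 h 1 erythroid marker was higher and 5 were lower. Of these 5, 2 had an unadjusted p under 0.05 in limma, against 4.73% of all probe sets. The part of these markers in the channel differences was not tested.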

How the data were processed

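RNA of 17 brain pools was read on a 1-colour array. The values are log2 expression per probe set as deposited by the authors, made with oligo, RMA and limma per the submitters' processing notes, in versions not stated there. RMA removes background and aligns the distribution of all arrays, so a change shared by most transcripts is not visible. Array medians ran from 6.10 to 6.23. Of 15617 probe sets, 115 control probe sets were left out which left 15502 for testing, dim ones included. Of these, 10795 carried 1 symbol in the platform annotation, 135 several and 4572 none, and a gene with several probe sets was read by the brightest on average.

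One fit of limma 3.58.1 in R 4.3.3 with a mean per group (11 residual degrees of freedom) gave moderated two-sided tests, and F tests for time and for the difference between times. The labels give each array as a pool of brains, and precision is limited by how many arrays there are. The procedure was tested on simulated data. The members, lists and tests were chosen with earlier results of these data known. The genes described were those past the threshold in any comparison, the 5 per direction with the smallest p at each time, the 4 with the smallest p in each other comparison, the leading gene of each class and a list of well-known channels; the remaining members are given in brief. Alternatives were median centring, repeated quantile normalisation, a filter on dim probe sets, an intensity trend, array weights, other thresholds, a replicate block, fewer groups, other probe-set choices, array quality covariates and leaving out arrays.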

Additional observations from a re-analysis of the deposited data

Results flagged for a closer look

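The blank tag probe sets averaged 5.74 on DA replicate 1 at 24 h, above the highest control array, 5.18. They had no part in the fit without covariates and entered the one with the blank covariate. The second probe set of trpm7, not the one that stood for the gene, differed by 0.54 at 24 h (SE 0.16, unadjusted p 0.00395, adjusted p 0.173 in limma), and by 0.36 without DA replicate 1. It read 7.02, 6.52 and 6.43 in DA brains at 24 h and 6.19, 6.32 and 5.85 in control brains at 24 h. Its group means ran from 6.12 to 6.66, and the brightest blank probe set averaged 6.65. What part background signal has in its difference was not tested. The probe set used for trpm7 differed by -0.12 at 24 h. Without DA replicate 1 the probe set used differed by 0.08, so the disagreement in sign rests on that array.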

How the results depend on the processing

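The counts at 48 h and 168 h stayed at 0 under all alternatives run. At 24 h the count of channel genes was 1 (scn8aa) with array weights, the blank covariate, the replicate block and an adjusted p under 0.10. Of all 15502 probe sets, 90, 327, 9 and 50 passed in these settings. Without both doubted 24 h arrays (DA replicate 1 and control replicate 3) it was 2 (clcn3 and scn8aa), against 237 of all probe sets. At an unadjusted p under 0.05 it was 6, against 13.4% of all probe sets. Leaving out single arrays gave 0 to 1 at 24 h, for the mean effect and for time among DA brains. Without DA replicate 1 at 24 h, scn8aa passed at 24 h and for the mean effect, against 217 and 64 of all probe sets. Without DA replicate 1 at 168 h it passed in both again, against 82 and 163. For time among DA brains clcn7 passed without DA replicate 1 at 24 h, against 305 of all probe sets. For the mean effect the count was 1 (scn8aa) with array weights, the blank covariate, the replicate block and both doubted arrays out. Of all probe sets, 209, 69, 12 and 117 passed in these settings. At an unadjusted p under 0.05 the count for the mean effect was 3, against 7.68% of all probe sets. Unadjusted p gave 1 gene for the difference between times, 2 for time among controls and 5 for time among DA brains. The shares over all probe sets were 6.26%, 11.7% and 15.6%. For time among DA brains array weights gave 2 (clcn7 and kcnd1), against 1662 of all 15502 probe sets. The blank covariate and removal of both doubted arrays gave 1 each (clcn7), against 282 and 454 of all probe sets. With the replicate block, scn8aa had an adjusted p of 0.0385 at 24 h. The replicate numbers were not taken as pairs: deviations of same-numbered arrays correlated by -0.20, -0.33 and 0.22 at 24 h, -0.01 and 0.01 at 48 h, and 0.18, 0.03 and -0.13 at 168 h. Blocking within each time and the spike-in covariate without DA replicate 1 at 24 h were added after seeing the data. Blocking within each time gave scn8aa an adjusted p of 0.162 at 24 h.

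Single-gene values were followed only for the pairs of gene and comparison that the naming rule picked. Of these, 1198 kept direction and side of the threshold, 12, all of scn8aa, passed it and 18 turned sign. Turns of other pairs, such as trpm7 and cacnb2b at 24 h, are not counted here. With the spike-in covariate, 48 h differences were -0.0054 for clcn4, -0.0389 for kcnk1b and 0.0908 for scn8aa. Without DA replicate 1 at 24 h as well they were -0.0762, -0.0628 and 0.0558, with -0.0020 for clcnk and, at 24 h, -0.0328 for kcnn1b and -0.0032 for scn1laa. For kcnn1b at 24 h array weights gave -0.0576, the blank covariate -0.0988 and both doubted arrays out -0.0917. For trpm7 at 168 h array weights gave -0.0021. Leaving out single arrays gave -0.0302 to 0.122 for hcn2b at 168 h (lowest without DA replicate 1 at 168 h), -0.0591 to 0.2818 for kcnh6a at 48 h (lowest without control replicate 2 at 48 h) and -0.0319 to 0.1276 for kcnk1b at 48 h (lowest without control replicate 1 at 48 h). It gave -0.0918 to 0.249 for kcnn1b at 24 h (lowest without DA replicate 1 at 24 h) and -0.0153 to 0.2968 for trpm7 at 168 h (lowest without DA replicate 1 at 168 h). The causes were not tested.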
